A study of Mus musculus with 12 samples.

Results

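The mRNA levels of 33 genes of cholesterol and fatty acid synthesis were followed in E14 cells, a mouse embryonic stem (ES) cell line, in 12 cultures in which 1 of 2 histone demethylases, or a control sequence, was targeted by RNA interference. The genes were chosen by name: 18 enzymes of the sterol branch, 10 of the fatty acid branch, and 5 regulators and transport proteins. Of the 33 genes, 32 had a probe on the array and 30 gave a signal that could be tested, out of 17658 genes with a named probe and 9222 tested. The level of Acat2 was not analysed here. The probes of Fdft1 and Srebf1 stayed below an intensity of 32 on every array, the limit used for background, and were not tested.

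All cultures were grown without feeder cells on gelatin with serum and the cytokine LIF, and each was transfected with 2 µg of a pSUPER puro plasmid that expresses a short hairpin RNA. The hairpin targeted Jmjd1a (current symbol Kdm3a) in 3 cultures, Jmjd2c (current symbol Kdm4c) in 3, and firefly luciferase (Luc), which mouse cells do not carry, in 6. The Luc cultures were kept in puromycin at 1 µg/ml for 4 days before RNA was taken. For the knockdown cultures the available label text breaks off where puromycin is mentioned, so its dose and length are not known here. Each hairpin is named only by its target, and no rescue or further hairpin was part of these 12 samples. Replicates are called biological in the labels, with nothing more on how the cultures were kept apart, so the p-values measure the spread between these samples. The number of arrays, 3 per knockdown, limits the precision of every value.

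Cells make cholesterol and fatty acids from acetyl-CoA. When sterols run low in the membrane of the endoplasmic reticulum, the escort protein SCAP carries the transcription factors SREBP1 and SREBP2 (genes Srebf1 and Srebf2) to the Golgi, where proteases release their active part, and INSIG proteins hold the complex back when sterols are plentiful. SREBP2 is known mainly for raising sterol genes and the SREBP1c form of Srebf1 for raising fatty acid genes, together with the factor NF-Y at CCAAT boxes and Sp1 at GC boxes. Stem cells that divide rapidly need both products for new membranes.

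The sequences before the start sites show which elements the genes of this pathway share. Windows of 250 bases before to 50 bases after a start were matched for 26 of the genes (33 windows), from RefSeq on the mouse build GRCm38.p6. Of these, 4 are shown. The 2 sterol genes are Hmgcs1, the only gene with a match to the 9-base element below, and Nsdhl, which was lower in both knockdowns. The 2 fatty acid genes, Acss2 and Fasn, are those whose control levels differed most strongly in opposite directions. Capitals mark the 9-base sterol regulatory element TCACNCCAC and the NF-Y element CCAAT, read on either strand, so that CCAAT also appears as ATTGG.
Hmgcs1, chr13:119690101-119690400, plus strand: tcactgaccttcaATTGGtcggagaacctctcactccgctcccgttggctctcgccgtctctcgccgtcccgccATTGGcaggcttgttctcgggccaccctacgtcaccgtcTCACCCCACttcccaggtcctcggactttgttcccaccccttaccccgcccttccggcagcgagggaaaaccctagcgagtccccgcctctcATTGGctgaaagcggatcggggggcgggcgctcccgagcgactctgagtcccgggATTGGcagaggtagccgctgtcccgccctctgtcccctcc
Nsdhl, chrX:72918271-72918570, plus strand: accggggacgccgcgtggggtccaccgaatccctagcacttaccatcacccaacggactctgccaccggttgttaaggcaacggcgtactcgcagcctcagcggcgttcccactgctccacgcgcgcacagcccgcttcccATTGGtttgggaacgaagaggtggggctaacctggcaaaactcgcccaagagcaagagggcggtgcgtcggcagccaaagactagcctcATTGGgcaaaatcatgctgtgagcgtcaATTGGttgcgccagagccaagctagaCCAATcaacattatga
Acss2, chr2:155517793-155518092, plus strand: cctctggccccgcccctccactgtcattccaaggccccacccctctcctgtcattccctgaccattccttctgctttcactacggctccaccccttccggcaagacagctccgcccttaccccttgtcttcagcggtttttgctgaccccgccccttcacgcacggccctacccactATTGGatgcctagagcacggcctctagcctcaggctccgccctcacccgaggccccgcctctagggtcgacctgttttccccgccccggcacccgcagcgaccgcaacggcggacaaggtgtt
Fasn, chr11:120824498-120824797, minus strand: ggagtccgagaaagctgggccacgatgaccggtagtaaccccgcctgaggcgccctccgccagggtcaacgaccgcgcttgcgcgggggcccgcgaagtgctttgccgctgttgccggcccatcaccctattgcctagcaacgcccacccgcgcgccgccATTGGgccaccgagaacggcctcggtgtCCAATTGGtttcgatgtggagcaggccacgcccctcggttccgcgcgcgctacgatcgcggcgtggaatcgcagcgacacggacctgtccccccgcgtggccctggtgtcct

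CCAAT occurred in 22 of the 33 windows (66.7%), against 37.4% of all 32851 promoter windows. The GC box GGGCGG occurred in 25 of 33 (75.8%), against 35.7% of all windows, and the E-box CACGTG in 6 of 33 (18.2%), against 7.15%. TCACNCCAC occurred in 1 of 33, that of Hmgcs1, and in 1.24% of all windows. All were searched on both strands as plain letters, and a match describes the window only. Forms of the sterol regulatory element with other letters were not searched. CCAAT can overlap with its own reverse, as it does once in Fasn. Windows of the same gene can overlap, as the 2 of Scap do, and were counted separately above. By gene, the CCAAT box occurred in 21 of 26 (80.8%, against 41.1% of all genes). The GC box occurred in 22 of 26 (84.6%, against 38.2%) and the E-box in 5 of 26 (19.2%, against 8.09%). Fdps, Sqle, Scd1, Scd2 and Fads1 had no window in the table used.

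The targeted mRNAs checked the labels. Both Kdm3a probes were lower in the Jmjd1a arrays than in Luc (log2 changes of -1.65 and -1.40), and Kdm4c was lower in the Jmjd2c arrays (-1.38, limma adjusted p = 3.16e-08). The arrays formed 2 sets that the labels do not name. Luc replicates 1 to 3, called here the first Luc set, stood with the Jmjd1a arrays (correlations of log2 values 0.986 to 0.988), and Luc replicates 4 to 6, the second Luc set, stood with the Jmjd2c arrays (0.980 to 0.983), while the Luc sets correlated at 0.962 to 0.964 with each other. The Jmjd2c arrays correlated with the first Luc set at 0.974 to 0.976, below their value with the second and above that between the Luc sets. Each knockdown was therefore compared with the 3 Luc arrays of its own set. This reading came from earlier results of these data, whereas the series text sets each knockdown against all 6 Luc arrays, and values against all 6 are given beside each named call that they end or turn. In the fit, intensities below 32 were raised to 32 and put on the log2 scale, and a gene is called at a limma adjusted p under 0.05 over 15853 tested probes. Every adjusted p given here is two-sided and from limma.

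Cell identity markers also moved. The summed intensity of 8 ES cell markers was 23895 to 25224 in the first Luc set and 18901 to 19013 in the Jmjd1a arrays, and 25948 to 27133 in the second Luc set and 22303 to 22999 in the Jmjd2c arrays. In each knockdown 3 of 7 tested ES cell markers were lower. They were Nanog, Zfp42 and Esrrb in Jmjd1a, and Nanog, Sox2 and Tdgf1 in Jmjd2c. Pou5f1 (-0.04 and 0.03) and Utf1 (-0.08 and 0.03) were called in neither. Over all tested genes 13.6% were called lower and 14.5% higher in Jmjd1a, and 19.6% and 22.7% in Jmjd2c. For 10 markers of primitive and visceral endoderm the sums were 2021 to 2055 in the first Luc set, 912 to 1038 in Jmjd1a, 1114 to 1138 in the second Luc set and 3063 to 3350.2 in Jmjd2c, with 4 of 6 tested lower in Jmjd1a and 4 higher in Jmjd2c. Sox7, Afp and Ttr were below 32 on every array. Of 5 tested trophectoderm markers 4 were higher in Jmjd1a and 3 in Jmjd2c, with sums over 6 markers of 1535 to 1584, 1738 to 1840.2, 2374 to 2937 and 3381 to 3629 in the same order of groups. Of 6 fibroblast markers Col1a1, Col1a2, Col3a1 and Postn were below 32 on every array. Thy1 was lower in both knockdowns (-0.77, adjusted p = 0.0194, and -1.22, adjusted p = 0.000801), and Pdgfrb was lower in Jmjd2c (-0.69, adjusted p = 0.000336). The sums over the 6 were 138 to 158, 98.4 to 118, 198 to 233 and 94.5 to 146. The part of these shifts in the lipid gene values was not tested, and in bulk RNA fewer cells of a type and less RNA per cell cannot be told apart.

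In the Jmjd1a knockdown 8 of the 30 tested lipid genes were lower and 2 were higher. The genes that fell were the desaturases Scd1, Scd2 and Fads1 and the sterol enzymes Dhcr7, Mvd, Nsdhl, Fdps and Lss. The NADPH-producing Me1 and the elongase Elovl6 rose. Over all tested genes 13.6% were called lower and 14.5% higher in this comparison (25.5% of probes in either direction). The median log2 change was -0.07 over the 30 genes and 0.00 over all tested genes.

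In the Jmjd2c knockdown 18 of the 30 were lower and 2 were higher. The falls covered 10 of 16 sterol enzymes, 6 of 10 fatty acid genes, and the regulators Srebf2 and Insig1, and the rises were those of Scap and Fasn. Without Insig1, which passed the filter on low values only through the second Luc set that it was compared with, 17 of 29 were lower. Over all genes 19.6% were called lower and 22.7% higher (39.0% of probes in either direction). The median was -0.30 over the 30 genes and 0.02 over all genes. Against all 6 Luc arrays, 8 genes were called lower and 1 higher, while 1896 probes were called in place of 6176.

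**Figure D1:**
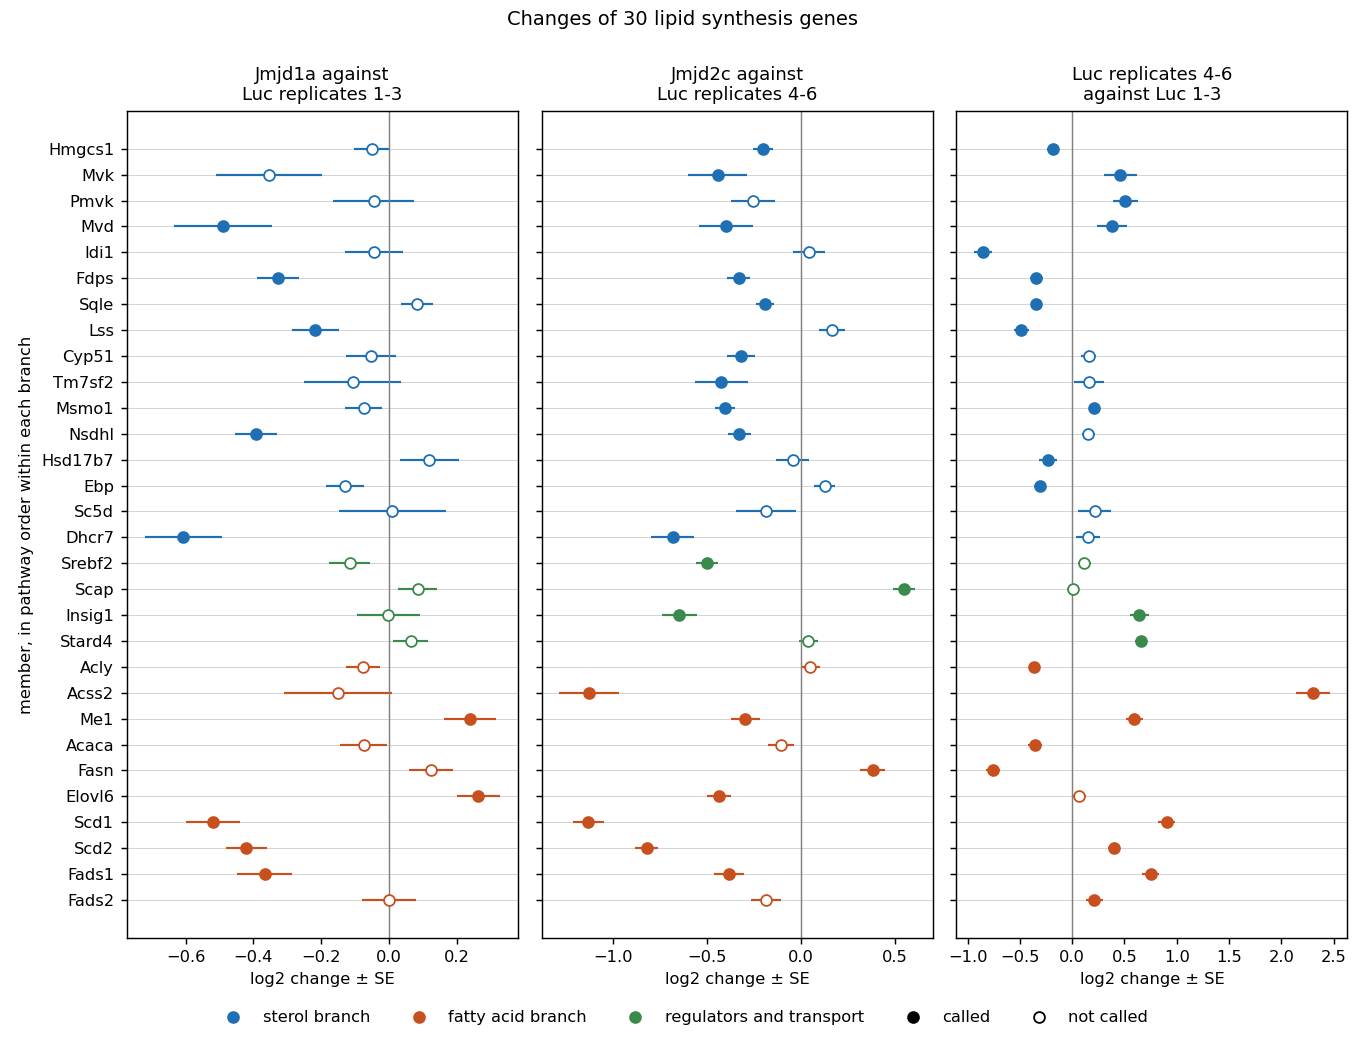
Log2 change with its SE for each of the 30 tested genes, in pathway order, in the Jmjd1a arrays against Luc replicates 1 to 3, the Jmjd2c arrays against Luc replicates 4 to 6, and between the Luc sets (3 arrays per group; filled points are called, and the horizontal scales differ). In the Jmjd2c panel 18 of the filled points lie left of 0 and 2 right of it; in the Jmjd1a panel 8 lie left and 2 right.

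Each gene was read on its probe of highest mean. Of the 4 tested regulators and transport genes, limma then called 3 in Jmjd2c (2 without Insig1) and 0 in Jmjd1a. In Jmjd1a also 0 of these probes had an unadjusted p under 0.05. Over all tested genes 19.6% were called lower and 22.7% higher in Jmjd2c, and 13.6% and 14.5% in Jmjd1a. With 4 genes, the counts are too small to be set against these shares. Srebf2, which encodes SREBP2, read 373, 345 and 357 in the first Luc set and 312, 339.7 and 340.4 in the Jmjd1a arrays. It read 387, 385 and 393 in the second Luc set and 264, 269 and 293 in the Jmjd2c arrays. All 3 Jmjd2c arrays lay below all 6 Luc arrays. The change was -0.50 ± 0.06 (SE) in Jmjd2c (adjusted p = 6.5e-05) and -0.12 ± 0.06 in Jmjd1a (adjusted p = 0.193), and the changes differed from each other by 0.38 ± 0.09 (adjusted p = 0.00708). The Srebf2 probes disagreed on this. Another probe changed by -0.72 ± 0.13 in Jmjd1a (adjusted p = 0.00174) and by -0.30 in Jmjd2c (adjusted p = 0.0881). A further probe changed by -0.24 in Jmjd1a (adjusted p = 0.0563) and by -0.47 in Jmjd2c (adjusted p = 0.00104). With the mean of the gene's probes Srebf2 was called lower in Jmjd1a (-0.36, adjusted p = 0.000319). The difference between the knockdowns was then 0.06 (adjusted p = 0.563).

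Scap, the escort of both SREBPs, moved the other way. It read 385, 368 and 353 in the first Luc set, 389, 403 and 380.4 in Jmjd1a, 379, 383 and 351 in the second Luc set, and 549.7, 527 and 551 in Jmjd2c. Every Jmjd2c array was above every Luc and Jmjd1a array, and the other 9 arrays overlapped. The rise in Jmjd2c was 0.55 ± 0.06 (adjusted p = 2.24e-05), the same against all 6 Luc arrays (0.55), and it differed from the 0.08 of Jmjd1a (difference of -0.47 ± 0.08, adjusted p = 0.00173).

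Insig1, which encodes a retention protein and is itself a known SREBP target, was close to background. It read 28.8, 32.1 and 27.9 in the first Luc set, 29.9, 24.5 and 19.3 in Jmjd1a, 55.7, 54.3 and 41.4 in the second Luc set, and 24.9, 30 and 19.9 in Jmjd2c. Only 4 arrays were above 32, and 3 of them were those of the second Luc set. With all Jmjd2c arrays below the limit, Insig1 was at least 1.56-fold lower there than in the second Luc set (adjusted p = 0.000213), a p that does not measure the spread of the arrays set to the limit. The gene entered the test only because the second Luc set was above the limit, so the call follows from the filter. It was not called against all 6 Luc arrays (-0.32, adjusted p = 0.311). With a limit of 64 the difference could not be seen, as all its arrays then lay at the limit. As its Jmjd1a arrays lay below the limit too, no size of the difference between the knockdowns can be given (adjusted p = 0.00419, and 0.0725 with a limit of 16). Srebf1, on a probe for the SREBP1 gene, read between -23.4 and -6.8 on the 12 arrays, which gives no level for either SREBP1 form. Stard4, a carrier of sterols between membranes, was not called in either knockdown, with changes of 0.06 ± 0.05 in Jmjd1a and 0.04 ± 0.05 in Jmjd2c.

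The early sterol enzymes lead from acetyl-CoA through mevalonate to farnesyl diphosphate. Of 6 tested, 2 fell in Jmjd1a (Mvd and Fdps) and 4 fell in Jmjd2c (Hmgcs1, Mvk, Mvd and Fdps), with medians of -0.19 and -0.29. Fdps, farnesyl diphosphate synthase, read 1798, 1865 and 1911 in the first Luc set and 1454, 1434 and 1558 in Jmjd1a. It read 1497, 1544 and 1355 in the second Luc set and 1163, 1185 and 1146 in Jmjd2c. Each knockdown lay wholly below its own Luc set, and the Jmjd1a arrays overlapped with the second Luc set. The change was -0.33 ± 0.06 in each knockdown (adjusted p = 0.00236 in Jmjd1a and 0.00141 in Jmjd2c), and the difference between them was 0.00 ± 0.09 (adjusted p = 0.986). The Luc sets themselves differed by -0.34 ± 0.06, and against all 6 Luc arrays the Jmjd1a change was -0.15 (adjusted p = 0.32).

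Mvd, the decarboxylase that makes isopentenyl diphosphate, read 72.3, 77.0 and 85.5 in the first Luc set, 51.0, 64.7 and 52.2 in Jmjd1a, 95.3, 100.5 and 109.9 in the second Luc set, and 60.0, 86.6 and 88.8 in Jmjd2c. Both knockdowns lay wholly below their own Luc arrays, and Jmjd2c replicates 2 and 3 lay above the whole first Luc set. Its changes were -0.49 ± 0.14 (adjusted p = 0.0275) and -0.40 ± 0.14 (adjusted p = 0.0479). The Jmjd1a call was lost without Luc replicate 2 or 3 or Jmjd1a replicate 1 or 3 (adjusted p up to 0.0972), the Jmjd2c call in 9 of 12 such fits (up to 0.171), and the Jmjd2c change was -0.21 against all 6 Luc arrays (adjusted p = 0.472). Mvk, mevalonate kinase, read 60.7, 40.9 and 40.9 in the first Luc set, 38.3, 31.5 and 39.7 in Jmjd1a, 67.4, 61.8 and 63.4 in the second Luc set, and 51.3, 52.4 and 39.2 in Jmjd2c. The Jmjd2c arrays lay below the second Luc set and overlapped with the first. The change there was -0.44 ± 0.16 (adjusted p = 0.0434), a call lost in 7 of 12 fits without 1 array (up to 0.164) and against all 6 Luc arrays (-0.21, adjusted p = 0.516). In Jmjd1a the Mvk change was -0.35 ± 0.16 (adjusted p = 0.129), and against all 6 Luc arrays it was -0.58 (adjusted p = 0.0472). The Jmjd2c calls of Mvd and Mvk were also lost under quantile normalization (adjusted p = 0.0561 and 0.094). They were lost with a floor of 16 (adjusted p = 0.0624 and 0.0599) and without a filter (0.27 and 0.258) too. With a floor of 64 the Mvk change in Jmjd2c was -0.02 (adjusted p = 0.343).

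Hmgcs1, HMG-CoA synthase, had the only match to TCACNCCAC among the windows of these genes. It read 3838, 3976 and 4181 in the second Luc set and 3511, 3374 and 3558 in Jmjd2c. The Jmjd2c arrays were also below the first Luc set, which read 4534, 4579.8 and 4541. The change was -0.20 ± 0.05 (adjusted p = 0.0104), against -0.05 ± 0.05 in Jmjd1a (adjusted p = 0.563), and the difference between the knockdowns did not pass (0.15 ± 0.07, adjusted p = 0.169). Pmvk, phosphomevalonate kinase, changed by -0.25 ± 0.12 in Jmjd2c without passing (adjusted p = 0.117). Idi1, the isomerase that follows, was not called in either knockdown (-0.04 ± 0.09 and 0.04 ± 0.09), with arrays of knockdown and Luc overlapping in both sets.

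The steps from squalene to lanosterol did not move together. Sqle, squalene epoxidase, read 1113, 1095 and 1064 in the first Luc set, 1179, 1147 and 1140.2 in Jmjd1a, 867, 838 and 864 in the second Luc set, and 753, 732 and 767 in Jmjd2c. The Jmjd1a arrays lay above their Luc arrays without a call (0.08 ± 0.05, adjusted p = 0.254), and the Jmjd2c arrays lay below all others and fell (-0.19 ± 0.05, adjusted p = 0.00861). The knockdowns differed by 0.27 ± 0.07 (adjusted p = 0.0132). With the mean of its probes the Jmjd2c fall was -0.13 (adjusted p = 0.0878) and the difference 0.23 (adjusted p = 0.0521). Lss, lanosterol synthase, showed the opposite order, with -0.22 ± 0.07 in Jmjd1a (adjusted p = 0.0389) and 0.17 ± 0.07 in Jmjd2c (adjusted p = 0.0814). The difference was -0.38 ± 0.10 (adjusted p = 0.0148), and 0.0547 when all 46133 probes were tested. With the mean of its probes the Lss difference was -0.19 (adjusted p = 0.122) and the Jmjd1a change -0.11 (adjusted p = 0.216). The other tested Lss probe lay below 32 on all first Luc set and Jmjd1a arrays, so averaging with it shrinks these values. The Jmjd1a call on Lss was lost in 6 of 12 fits without 1 array (adjusted p up to 0.138), and against all 6 Luc arrays the value was 0.03 (adjusted p = 0.908). Fdft1, squalene synthase, read below 0 on every array.

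Of 8 enzymes from lanosterol to cholesterol, 2 fell in Jmjd1a and 5 in Jmjd2c, with medians of -0.09 and -0.32. Dhcr7, the reductase of the last step in one of the routes to cholesterol, fell the most of all tested sterol enzymes in both knockdowns. It read 107, 105 and 92.4 in the first Luc set and 61.4, 58.3 and 82.0 in Jmjd1a. It read 111, 121 and 106 in the second Luc set and 66.8, 71.5 and 72.3 in Jmjd2c. Every knockdown array was below every Luc array, and the Luc sets overlapped. The changes were -0.61 ± 0.11 (adjusted p = 0.00233) and -0.68 ± 0.11 (adjusted p = 0.000673), and they differed by 0.07 ± 0.16 (adjusted p = 0.781). With only the 6 arrays of the comparison in the fit the Jmjd1a fall had an adjusted p of 0.0505. Nsdhl, the sterol dehydrogenase that removes a carboxyl group, read 931, 953 and 962 in the first Luc set, 710.0, 705 and 755 in Jmjd1a, 1004, 1063 and 1101 in the second Luc set, and 904, 807 and 818 in Jmjd2c. Here too all 6 knockdown arrays were below all 6 Luc arrays. The changes were -0.39 ± 0.06 (adjusted p = 0.000683) and -0.33 ± 0.06 (adjusted p = 0.00148). They differed by -0.07 ± 0.09 (adjusted p = 0.631). With the mean of its probes the Jmjd1a change was -0.31 (adjusted p = 0.0518), and against all 6 Luc arrays the Jmjd2c change was -0.25 (adjusted p = 0.0513).

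The enzymes that act on lanosterol and its next products fell in Jmjd2c. They were the demethylase Cyp51 (-0.31 ± 0.07, adjusted p = 0.00567), the sterol reductase Tm7sf2 (-0.42 ± 0.14, adjusted p = 0.0355) and the methylsterol oxidase Msmo1 (-0.40 ± 0.05, adjusted p = 0.000146). In Jmjd1a their changes were -0.05, -0.11 and -0.07, none of them called. For Msmo1 the knockdowns differed (0.33 ± 0.08, adjusted p = 0.00944), while for Cyp51 and Tm7sf2 the difference did not pass (adjusted p = 0.0934 and 0.292). On Msmo1 the Jmjd2c arrays read 943, 1007 and 990.3, below both Luc sets, of which the second read 1299, 1336 and 1251 and the first 1138, 1113 and 1102. Cyp51 and Tm7sf2 were not called against all 6 Luc arrays (adjusted p = 0.0931 and 0.13), and Tm7sf2 was lost without Luc replicate 5 or 6 or Jmjd2c replicate 1 or 2 (adjusted p up to 0.134). With a floor of 64 the Tm7sf2 change in Jmjd2c was -0.05 (adjusted p = 0.343), and without a filter its adjusted p was 0.216. A further probe of Tm7sf2 fell in both knockdowns (-0.46, adjusted p = 0.0186, and -0.51, adjusted p = 0.00714). The later enzymes Hsd17b7, Ebp and Sc5d were not called in either knockdown, with changes between -0.18 and 0.13. The difference between the knockdowns passed for the sterol isomerase Ebp (-0.26 ± 0.08, adjusted p = 0.0364), but not in 9 of 12 fits without 1 array (up to 0.0815).

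The fatty acid branch begins with acetyl-CoA from citrate (ATP citrate lyase, Acly) or acetate (Acss2) and with NADPH, to which malic enzyme (Me1) contributes. Acly was not called in either knockdown (-0.08 ± 0.05 and 0.05 ± 0.05). Acss2, the acetyl-CoA synthetase, read 65.7, 59.4 and 47.8 in the first Luc set, 43.2, 46.2 and 68.4 in Jmjd1a, 288, 264 and 295 in the second Luc set, and 139.6, 124 and 125 in Jmjd2c. The Jmjd2c arrays lay between the Luc sets and overlapped with neither. Against the second Luc set Acss2 fell by 1.12 ± 0.16 on the log2 scale (adjusted p = 0.000195), to 45.9% of its level, and against all 6 Luc arrays its change was 0.03 (adjusted p = 0.987). The Luc sets differed by 2.30 ± 0.16, or 4.94-fold (adjusted p = 2.28e-07). The Acss2 change in Jmjd1a was -0.15 ± 0.16 (adjusted p = 0.565), and the knockdowns differed by 0.97 ± 0.22 (adjusted p = 0.00853, and 0.0828 when all 46133 probes were tested).

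Me1 moved in opposite directions in the knockdowns. It read 590.5, 611 and 546 in the first Luc set, 759.6, 666 and 640.3 in Jmjd1a, 882, 840.2 and 918 in the second Luc set, and 714, 764 and 675 in Jmjd2c. The Jmjd1a arrays lay above and the Jmjd2c arrays below their own Luc arrays, and the Jmjd2c arrays lay above the first Luc set. The changes were 0.24 ± 0.08 (adjusted p = 0.0425) and -0.29 ± 0.08 (adjusted p = 0.0107), with a difference of 0.53 ± 0.11 (adjusted p = 0.00462). The rise in Jmjd1a was lost in 6 of 12 fits without 1 array (adjusted p up to 0.162). Set against all 6 Luc arrays, the Me1 changes were -0.06 in Jmjd1a (adjusted p = 0.819) and 0.00 in Jmjd2c (adjusted p = 0.997).

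Neither enzyme of palmitate synthesis was called lower. Acaca, acetyl-CoA carboxylase, was not called (-0.07 ± 0.07 in Jmjd1a and -0.10 ± 0.07 in Jmjd2c). Fasn, fatty acid synthase, read 5749, 6289 and 5649 in the first Luc set, 6909, 6299.8 and 6072 in Jmjd1a, 3407, 3409 and 3625 in the second Luc set, and 4541, 4679.5 and 4400.5 in Jmjd2c. The Jmjd2c arrays lay above the second Luc set and below the first. Fasn rose by 0.38 ± 0.07 in Jmjd2c against its own set (adjusted p = 0.000768), and against all 6 Luc arrays the value was 0.00 (adjusted p = 0.995). In Jmjd1a the change was 0.12 ± 0.07 (adjusted p = 0.207), with overlapping arrays.

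Elongation split the knockdowns. Elovl6, the elongase that extends palmitate to stearate, read 819, 754 and 858 in the first Luc set, 943, 955 and 1018 in Jmjd1a, 870.3, 836 and 836 in the second Luc set, and 599, 660.0 and 624 in Jmjd2c. All Jmjd1a arrays were above and all Jmjd2c arrays below all 6 Luc arrays, and the Luc sets overlapped. The changes were 0.26 ± 0.06 (adjusted p = 0.00986) and -0.43 ± 0.06 (adjusted p = 0.000258), and their difference was 0.70 ± 0.09 (adjusted p = 0.000247). A further Elovl6 probe gave 0.37 (adjusted p = 0.00477) and -0.33 (adjusted p = 0.00574), again with a difference of 0.70. Against all 6 Luc arrays both calls remained (0.23, adjusted p = 0.0352, and -0.40, adjusted p = 0.00298).

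The desaturases Scd1, Scd2 and Fads1 fell in both knockdowns. Scd1, which makes oleate from stearate, read 487, 464 and 469.6 in the first Luc set and 334, 344 and 314 in Jmjd1a. It read 829.7, 892 and 937 in the second Luc set and 421, 441 and 357 in Jmjd2c. Each knockdown lay below both Luc sets. The changes were -0.52 ± 0.08 in Jmjd1a (69.8% of the Luc level, adjusted p = 0.000623) and -1.13 ± 0.08 in Jmjd2c (45.7%, adjusted p = 1.32e-06). The difference was 0.61 ± 0.11 (adjusted p = 0.00264). The second Luc set was higher than the first by 0.90 ± 0.08, and against all 6 Luc arrays the Jmjd2c change was -0.68 (adjusted p = 0.1).

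Scd2, a paralogue with the same reaction, read 4575, 4743 and 4971 in the first Luc set, 3520.1, 3391 and 3760.2 in Jmjd1a, 6134, 6239 and 6457 in the second Luc set, and 3417, 3729.7 and 3529 in Jmjd2c. The 6 knockdown arrays overlapped with each other and lay below all 6 Luc arrays. The changes were -0.42 ± 0.06 (adjusted p = 0.000342) and -0.82 ± 0.06 (adjusted p = 1.63e-06), with a difference of 0.40 ± 0.09 (adjusted p = 0.00579). Both were -0.62 against all 6 Luc arrays (adjusted p = 0.00508 and 0.00653). Fads1, the desaturase that makes arachidonate, read 1416, 1498 and 1430.1 in the first Luc set, 1237, 1167 and 982 in Jmjd1a, 2440.2, 2373 and 2491 in the second Luc set, and 1779.6, 1840.1 and 1994 in Jmjd2c. The Jmjd1a arrays were below all Luc arrays, while the Jmjd2c arrays lay between the Luc sets. Its changes were -0.37 ± 0.08 (adjusted p = 0.0062) and -0.38 ± 0.08 (adjusted p = 0.00312), with a difference of 0.02 ± 0.11 (adjusted p = 0.941). Against all 6 Luc arrays the Jmjd2c value was -0.01 (adjusted p = 0.992), and with only the 6 arrays of the comparison in the fit the Jmjd1a fall had an adjusted p of 0.0543. Fads2, the desaturase that precedes Fads1, was near background and not called (0.00 and -0.18). Scd1 and Scd2 are close in sequence, and whether their probes read only their own mRNA was not tested.

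**Figure D2:**
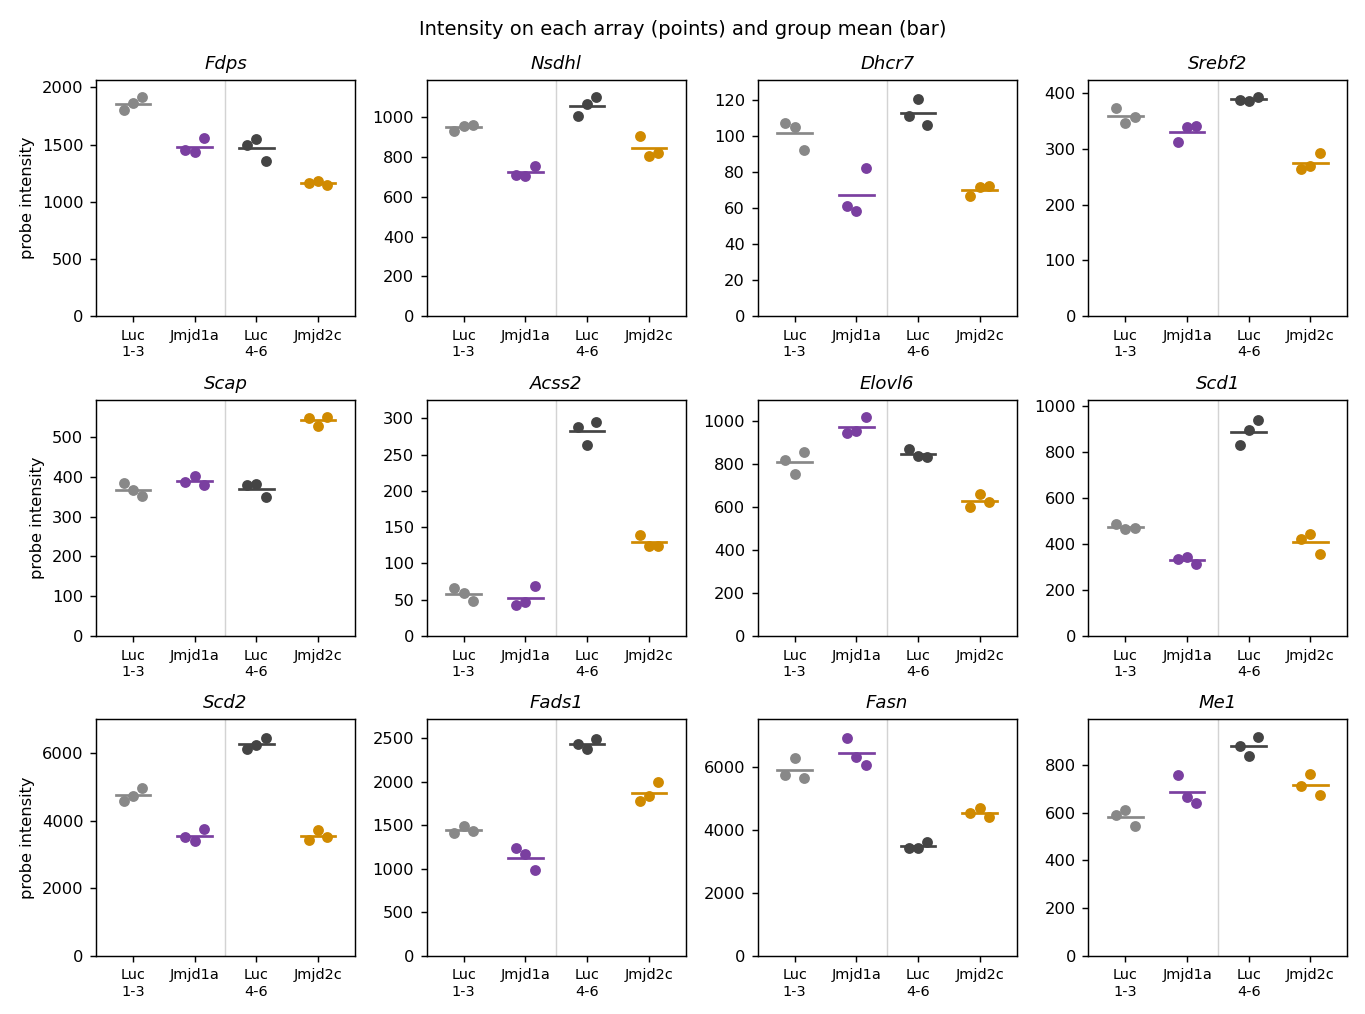
Probe intensity on each of the 12 arrays for 12 of the genes (points, 1 per array; bars, means of 3 arrays; each vertical axis starts at 0). Elovl6 is above Luc in Jmjd1a (943 to 1018) and below it in Jmjd2c (599 to 660.0), Scap is high in Jmjd2c alone (527 to 551), and Acss2, Fads1 and Fasn in Jmjd2c lie between the Luc sets.

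Among called genes, the sterol enzymes were lower in both knockdowns, while the fatty acid branch held both directions. With a floor of 64 Sqle was called higher in Jmjd1a (adjusted p = 0.0402) and Ebp in Jmjd2c (adjusted p = 0.0429), and without Jmjd2c replicate 3 so were Ebp and Lss in Jmjd2c (adjusted p = 0.0297 and 0.0391). In Jmjd1a limma called 0 sterol enzymes higher (also 0 at an unadjusted p under 0.05), 5 of 16 were lower and the median was -0.09, while of 10 fatty acid genes 2 were higher, 3 were lower and the median was -0.08. In Jmjd2c it called 0 sterol enzymes higher (Lss and Ebp, 2, at an unadjusted p under 0.05), 10 of 16 were lower and the median was -0.28 (range -0.68 to 0.17), and of the fatty acid genes 1 was higher, 6 were lower and the median was -0.34 (range -1.13 to 0.38). Against their own Luc arrays the medians of the branches were thus close to each other in both knockdowns, and the range was wider in the fatty acid branch. The second Luc set was above the first by a median of 0.15 in the sterol and 0.31 in the fatty acid branch. The Jmjd2c medians therefore depend on the choice of controls. With all 6 Luc arrays, the sterol enzymes still called lower in Jmjd2c were Hmgcs1, Fdps, Sqle, Msmo1 and Dhcr7. The fatty acid genes still called lower were Elovl6 and Scd2. Along the sterol pathway the Jmjd2c medians were -0.29 up to farnesyl diphosphate, -0.01 for the 2 tested steps to lanosterol and -0.32 after it, with no steady course from the first to the last enzyme.

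The knockdowns share no arrays, so their changes can be set against each other. Of the 8 genes lower in Jmjd1a 7 were also lower in Jmjd2c, which is 7 of the 18 lower there: Mvd, Fdps, Nsdhl, Dhcr7, Scd1, Scd2 and Fads1. Me1 and Elovl6 were called higher in Jmjd1a and lower in Jmjd2c, and 9 genes were called in neither. Over all tested genes 585 were lower in both, 46.7% of the 1254 lower in Jmjd1a and 32.3% of the 1809 lower in Jmjd2c, and 150 were higher in Jmjd1a and lower in Jmjd2c. Across the 30 genes, which share the same arrays and are no independent replicates, the changes correlated with r = 0.504, against 0.34 over all tested genes. The difference between the knockdowns was called for 12 of the 30. In 9 of these the Jmjd1a change was the higher, with Acss2, Elovl6, Scd1, Me1 and Scd2 at their head (8 without Insig1, whose difference has no measured size), and in 3, Scap, Lss and Ebp, it was the lower. Over all genes 12.9% were called in each direction (24.2% of probes in all), and the median difference was 0.15 over the 30 genes and -0.02 over all genes.

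**Figure D3:**
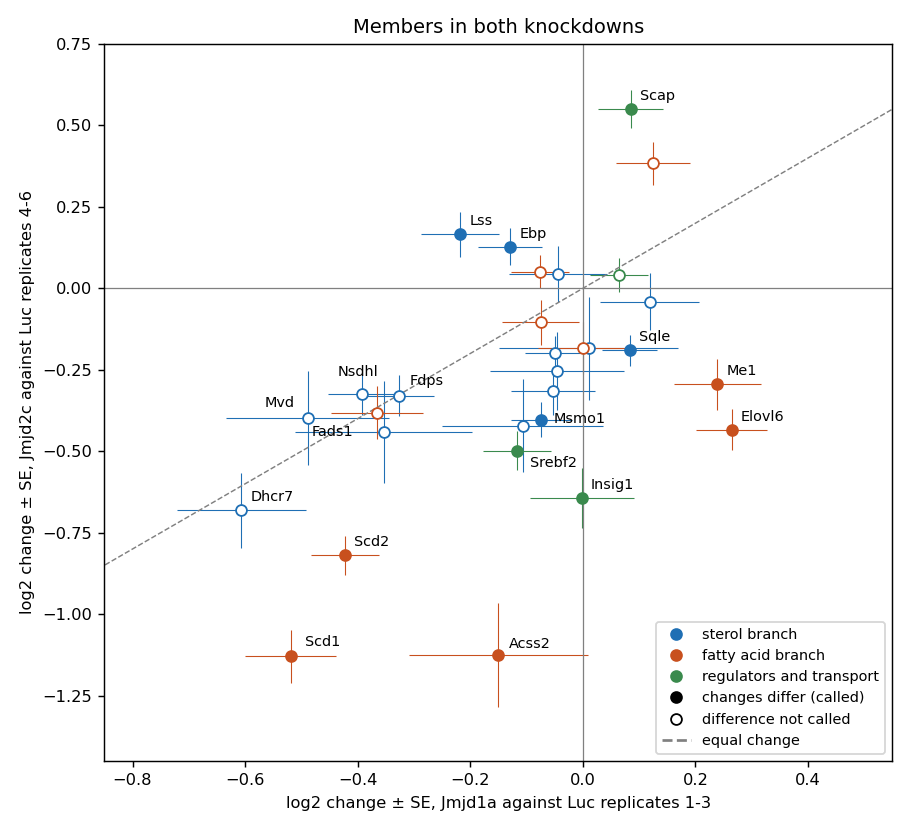
Log2 change with SE in Jmjd2c (vertical) against that in Jmjd1a (horizontal) for the 30 tested genes, each against its own 3 Luc arrays (filled points, the changes differ from each other by limma; dashed line, equal change). Elovl6 and Me1 lie in the quadrant of higher in Jmjd1a and lower in Jmjd2c, Dhcr7, Nsdhl and Fdps lie near the line, and Scd1 and Scd2 lie below it at -1.13 and -0.82.

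The control cultures differed in genes of this pathway without any knockdown, as they did over the whole array. Between the second and the first Luc set 12 of the 30 genes were higher and 10 lower, where 40.2% of all tested genes were higher and 21.6% lower (58.0% of probes in either direction). The median was 0.15 over the 30 genes and 0.11 over all tested genes. Quantile normalization moved the median over all probes from 0.10 to -0.01 and the higher share of called probes from 64.02% to 49.2%, so the values here are to be read against that shift. After Acss2 and Scd1, the largest difference was that of Idi1, which read 348, 417 and 405 in the first Luc set and 214, 207 and 227 in the second, a change of -0.85 ± 0.09 (adjusted p = 5.5e-06). Its knockdown arrays followed their own Luc sets, at 425, 359 and 351 in Jmjd1a and 226, 222 and 218 in Jmjd2c.

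Stard4 showed the same pattern in the other direction. It read 510.2, 519 and 525 in the first Luc set, 524, 549.6 and 551 in Jmjd1a, 815, 823 and 808 in the second Luc set, and 796, 858 and 865 in Jmjd2c. The arrays of the sets did not overlap, and the Luc difference was 0.65 ± 0.05 (adjusted p = 7e-07). Fads1 (0.75 ± 0.08), Insig1 (at least 1.56-fold, tested only because of that set) and Me1 (0.60 ± 0.08) were higher in the second Luc set too, and Fasn was lower (-0.76 ± 0.07, adjusted p = 1.47e-06). By branch, 4 sterol enzymes were higher and 7 lower with a median of 0.15, and 6 fatty acid genes were higher and 3 lower with a median of 0.31. The 6 include Fads2, whose first Luc set and Jmjd1a arrays all lay at the floor, so it passed the filter only through the other arrays. Fads2 and Insig1 are both among the 12 genes counted as higher in the second Luc set. Under quantile normalization 8 genes were called higher. The sterol rises of Mvk (0.23, adjusted p = 0.298), Pmvk (0.26, adjusted p = 0.0838) and Mvd (0.12, adjusted p = 0.488) were lost. The rise of Fads2 and the fall of Hmgcs1 were lost too (adjusted p = 0.152 and 0.5). Both knockdown comparisons share their Luc arrays with the comparison of the Luc sets. A level that is high in the second Luc set thus enters the Jmjd2c change with the opposite sign. What separates the sets, the sources used here do not say.

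**Figure D4:**
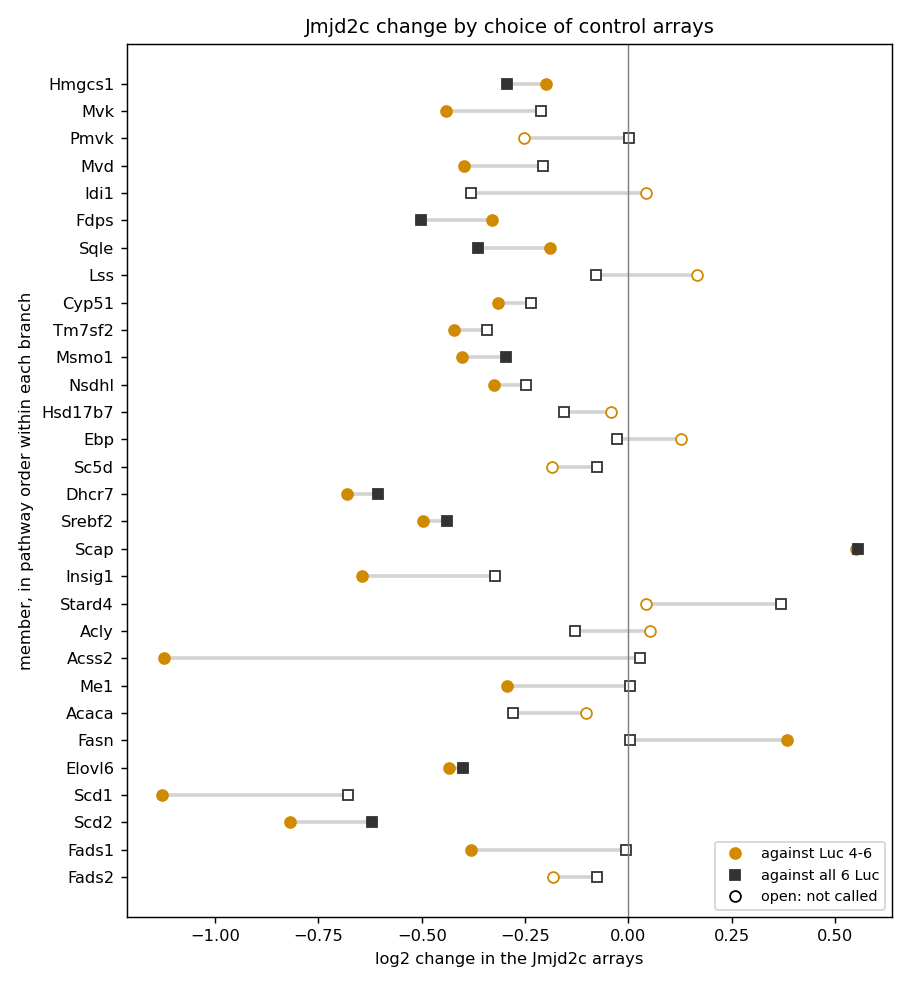
Log2 change of each tested gene in the Jmjd2c arrays against Luc replicates 4 to 6 (circles) and against all 6 Luc arrays (squares); open symbols are not called. Scap, Elovl6, Dhcr7, Srebf2 and Scd2 are called with both choices, whereas Acss2 moves from -1.12 to 0.03 and Fasn from 0.38 to 0.00.

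Further genes around the pathway were followed by a list of 40, of which 33 had a probe and 26 were tested. In Jmjd1a 6 were higher and 7 lower, where 14.5% and 13.6% of all genes were. In Jmjd2c 4 were higher and 9 lower, where 22.7% and 19.6% of all genes were. Abcg1, a sterol exporter and known target of the liver X receptors, read 159.7, 176 and 169.5 in the first Luc set, 129, 117 and 123 in Jmjd1a, 542, 581 and 526 in the second Luc set, and 348, 358 and 330.3 in Jmjd2c. The Jmjd1a arrays were below all Luc arrays, and the Jmjd2c arrays lay between the Luc sets. Its within-set changes were -0.46 ± 0.06 (adjusted p = 0.000301) and -0.67 ± 0.06 (adjusted p = 1.19e-05). Neither was called against all 6 Luc arrays (-1.31, adjusted p = 0.0612, and 0.18, adjusted p = 0.836), where the sign turned in Jmjd2c.

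The acetyl-CoA carboxylase activator Mid1ip1 had the signs of Elovl6 and Me1, with 0.31 (adjusted p = 0.0244) in Jmjd1a and -0.56 (adjusted p = 0.000415) in Jmjd2c, and the changes differed by 0.87 ± 0.13 (adjusted p = 0.000493). Its rise in Jmjd1a was not called against all 6 Luc arrays (0.20, adjusted p = 0.183). Other genes higher in Jmjd1a were the fatty acyl-CoA ligase Acsl4 (0.35), the retinol dehydrogenase Rdh11 (0.25) and Lbr (0.22), a nuclear envelope protein with sterol reductase activity. Of these Rdh11 was not called against all 6 (0.04, adjusted p = 0.834). The sterol scaffold protein Erg28 (-0.39) was lower in Jmjd1a. The electron donor reductase Cyb5r3 and the mitochondrial carboxylase Acacb were lower in Jmjd1a (-0.37 and -0.34) and in Jmjd2c (-0.25, adjusted p = 0.0174, and -0.21, adjusted p = 0.0205), where all 6 Luc arrays gave -0.09 and 0.08 without a call (adjusted p = 0.662 and 0.8).

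In Jmjd2c the CCAAT-binding subunit Nfyb (0.18), the SREBP protease Mbtps1 (0.19), Pgrmc1 (0.24) and the GC box factor Sp1 (0.47) were higher than in the second Luc set, and Nfyb was higher in Jmjd1a too (0.22, adjusted p = 0.0155). Against all 6 Luc arrays Pgrmc1 was called, while Nfyb (0.14, adjusted p = 0.177), Mbtps1 (0.22, adjusted p = 0.0515) and Sp1 (-0.10, adjusted p = 0.885) were not. Sp1 read 162, 208 and 172 in the first Luc set, 89.8, 73.5 and 81.3 in the second, and 100.7, 148 and 97.0 in Jmjd2c, between the Luc sets. The mitochondrial citrate carrier Slc25a1 (-0.41) and the lysosomal cholesterol carrier Npc2 (-0.36) were lower, and Npc2 was not called against all 6 (-0.01, adjusted p = 0.981).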

How the data were processed

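Total RNA (500 ng per sample, per the labels' protocols) was made into biotin-labelled cRNA and hybridised to one-colour Illumina bead arrays. The deposited values are linear intensities of 46133 probes. On each array 35.0% to 36.8% of these values are negative, so the authors had subtracted a background. The method, and any scaling of arrays, are not given in the sources used here. Mean intensity per array was 236 to 245, and 13591 to 14996 probes lay above 32. The deposited intensities were used without further normalization, raised to a floor of 32 and put on the log2 scale, which compresses the changes of dim probes. Probes above 32 on at least 3 of 12 arrays were tested (15853).

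Groups were compared with lmFit and eBayes of limma 3.58.1 in R 4.3.3 in 1 fit of 12 arrays with 4 groups and 8 residual degrees of freedom, Benjamini-Hochberg adjusted over all tested probes. The fit was tested on simulated data. Intensities are given per array without the floor, and changes as log2 estimate ± SE. Each gene is given by its probe of highest mean, with symbols from the platform annotation (29542 probes with 1 symbol, 11 with several, 16580 with none). Of these, 29484 were found by gene ID in a GRCm38.p6 gene table, and 0 symbols changed.

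The members, the further genes, the marker lists and the array sets were chosen with earlier results of these data known. Values per array are given for up to 8 called members of largest change in each comparison and always for Srebf1, Srebf2, Scap, Insig1, Fdps, Sqle, Scd1, Scd2 and Fasn; Hmgcs1 and Msmo1 were added after their values were seen. Of the further genes at most 4 called per direction and knockdown, those of largest change, were chosen. Those chosen in either knockdown are also given for the other where called there, as Cyb5r3 and Acacb in Jmjd2c and Nfyb in Jmjd1a. Ggps1 (-0.23 and -0.32) and Lpcat3 (-0.19 and -0.26), lower in Jmjd1a and Jmjd2c, were not chosen. Against all 6 Luc arrays these falls were not called (adjusted p from 0.0563 to 0.902), and the sign turned in Jmjd2c. Alternatives were quantile normalization, floors of 16 and 64, no filter, a stricter filter, the mean of a gene's probes, the arrays of the comparison alone, all 6 Luc arrays, a replicate block, and leaving out each array.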

Additional observations from a re-analysis of the deposited data

Results flagged for a closer look

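Among the 6 Luc arrays the desaturase Fads2 stood out on 1 array: Luc replicate 4 read 42.9, where the other 5 read 22.6 to 35.4. The gap to the next array took 0.656 of the range of the 6 arrays on the floored log2 scale. The 3 arrays of the first Luc set were at the floor, so the range reflects the second set. The Fads2 difference between the Luc sets, 0.21 ± 0.08, was not called without Luc replicate 4, nor without Luc replicate 1, 2 or 3. Chance alone marks about 1 in 20 such groups, and 30 genes were looked at.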

How the results depend on the processing

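Of 2354 values of single genes under the alternatives, 2181 stayed on their side of the threshold with no called change turning. Among these, 64 not called on either side changed sign. Of the rest, 136 lost and 24 gained a call, and 13 turned. The total includes fits that left out an array from outside the comparison, where the estimate could not change. The array sets mattered most. Against all 6 Luc arrays, 1896 probes were called in Jmjd2c (6176 against its own set), with 8 genes lower (18) and 1 higher (2), and in Jmjd1a 1 was higher (2). Directions turned there for Lss (0.026) and Me1 (-0.059) in Jmjd1a and for Acss2 (0.027) and Me1 (0.0029) in Jmjd2c. Same-numbered Jmjd1a and Luc arrays had deviations correlated at -0.00, 0.01 and 0.11, which cannot settle whether the numbers pair samples. With a replicate block in Jmjd1a, 2159 probes (4040), 4 genes lower (8) and 0 higher (2) were called. No such fit exists for Jmjd2c within its set, which shares no numbers. Over all 6 Luc arrays the replicate block sets Jmjd2c against the first Luc set: 5 genes were higher, and Mvk (0.018), Idi1 (-0.81), Lss (-0.32), Acly (-0.31), Acss2 (1.18), Me1 (0.30), Fasn (-0.38) and Fads1 (0.37) turned. Without a filter, 2624 probes were called in Jmjd1a and 2331 (3844) for the difference between the knockdowns, with 1 gene lower (3), as more probes were tested. Me1 fell below the threshold in Jmjd1a, leaving 1 gene higher, under quantile normalization, a floor of 16, no filter and the 6 arrays alone. Quantile normalization turned Scap between the Luc sets (-0.15). The cause was not tested elsewhere.

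Leaving out 1 array gave 3264 to 4090 probes in Jmjd1a (1 to 2 genes higher, 6 to 8 lower), 5373 to 6213 in Jmjd2c (2 to 4 higher, 15 to 18 lower), 8559 to 9310 between the Luc sets (9 to 13 higher, 9 to 10 lower) and 3296 to 3577 for the difference (9 to 10 higher, 2 to 4 lower). Low signal limits Mvk, Sc5d, Insig1 and Fads2, which had arrays near or below the floor of 32. With a floor of 64 the Jmjd2c falls of Mvk, Tm7sf2 and Insig1 were not called.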
